A study of Oryza sativa with 6 samples.

Results

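The genes described here make and use the small RNAs of rice. They are the genes that the RefSeq gene table names, by symbol or synonym, as an Argonaute, a Dicer-like protein, an RNA-dependent RNA polymerase, HEN1, SE or SGS3. The table names 20 such genes, and 19 of them, among 17905 genes measured in all, have a probe set that names 1 gene: 13 Argonautes, 2 Dicers, 3 polymerases and SGS3. The Argonaute AGO7 (also SHL4) was not measured, and no gene of the table carries the name HEN1 or SE. Dicers and polymerases that the table does not name by such symbols were not assessed. The arrays compare young inflorescences of the rice sro mutant with those of the Japonica variety 9522 as wild type, 3 biological replicates each, all cut at a length of 4 to 5 mm from untreated plants of the paddy field. SRO is known from published work as a SUPERMAN-like zinc finger gene that acts on stamens and carpels. The labels do not give the allele, the age of the plants or how many inflorescences were pooled, and no table used here names SRO, so the mutated gene itself was not checked.

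In plants, Dicer-like enzymes cut double-stranded RNA into microRNAs and small interfering RNAs, and Argonaute proteins carry these to matching transcripts, which are then cut or held silent. RNA-dependent RNA polymerases make the double strand where no hairpin exists. In rice, the polymerase SHL2 (the counterpart of RDR6 in Arabidopsis), DCL4 and AGO7 belong to the trans-acting siRNA pathway that shoot meristem formation depends on. One product, tasiR-ARF, directs the cutting of auxin response factor transcripts of the ETTIN type, which helps to set the upper and lower sides of organs. Rice inflorescences also make phased siRNAs, and the Argonaute MEL1 binds such RNAs in germ cells.

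Of the 19 small RNA pathway genes measured, 4 differed between sro and wild type, each by 1.56-fold or less. The 3 Argonaute genes AGO18, PNH1 and AGO17 fell by 0.64, 0.46 and 0.42 on the log2 scale, AGO1c rose by 0.20, and the other 15 genes did not pass the test. A second AGO18 probe set did not fall, and the AGO1c call was lost when any single array was left out. All 4 auxin response factor genes that tasiR-ARF is known to target fell, by 0.46 to 0.69, beside 19.4% of all genes called lower. Falls were not limited to them: 7 of 13 other measured auxin response factor genes, a list added after the values were seen, also fell. Values are log2 intensities as deposited, a change is sro minus wild type, and a gene was called when limma's Benjamini-Hochberg adjusted p, taken over all 57258 probe sets tested, was under 0.05. Levels of different genes come from different probes and were not set against each other.

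The share of calls among these genes lay near that of all genes, and the difference was not tested. Of the 19 genes, 1 rose and 3 fell (21.1% called), while 26.6% of all genes, with 1 probe set each, were called (7.28% higher, 19.4% lower). Over all probe sets, which include many that no gene is listed for, 14.6% were called (5.59% higher, 9.04% lower). The median log2 change was -0.08 for the 19 genes and -0.06 for all genes, and it lay below 0 in 13 of the 19 and in 60.8% of all genes. In 10 of the 19 the values of sro and wild type did not overlap, 1 with sro above and 9 with sro below, against 53.3% of all genes (17.5% above, 35.8% below). By role, the median change was -0.07 over the 13 Argonautes, -0.13 over the 2 Dicers and -0.09 over the 3 polymerases.

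**Figure D1:**
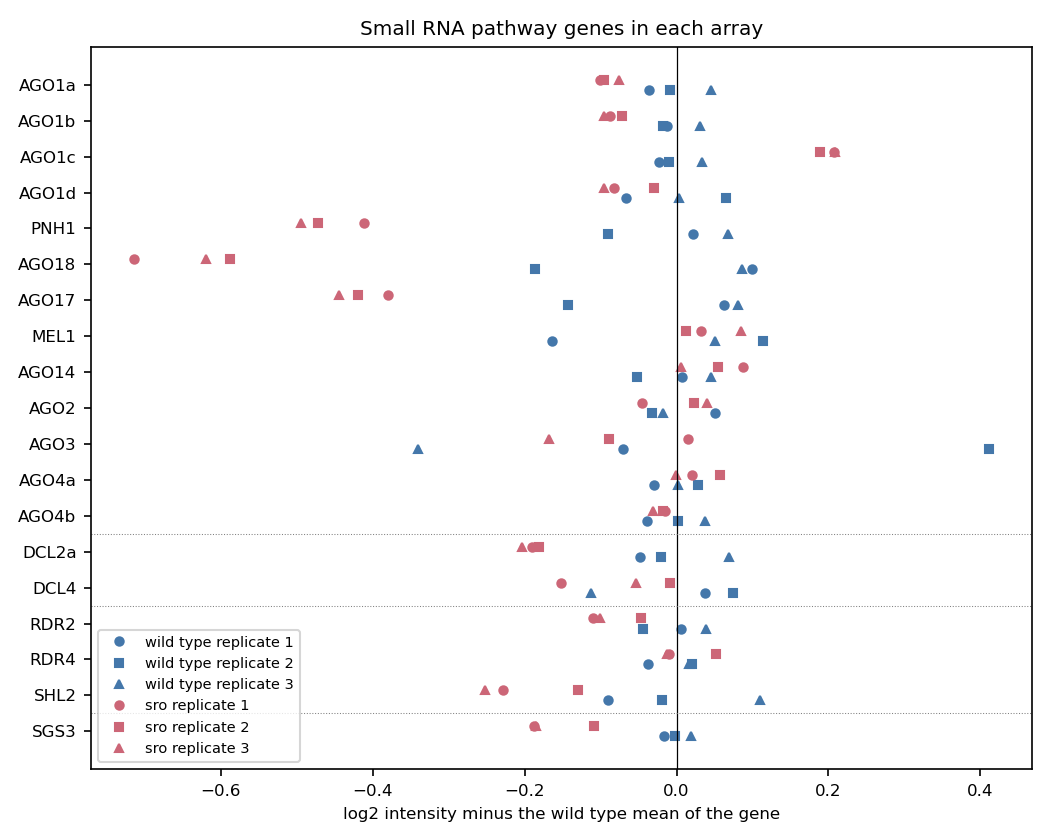
Each point is 1 array, placed on the horizontal axis by its log2 intensity minus the wild type mean of that gene, for the 19 genes on the vertical axis (blue, wild type; red, sro; marker shape, replicate number). AGO18, PNH1 and AGO17 have all 3 sro arrays well to the left of wild type, AGO1c has them to the right, and AGO3 has the widest wild type spread (SD 0.38).

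Arrays of one genotype correlated at 0.997 to 0.998 over all probe sets and arrays of different genotypes at 0.992 to 0.994. Controls of labelling differed between the groups. The dap spike read at its 5 prime end stood at 7.59, 7.55 and 7.77 in wild type replicates 1, 2 and 3 and at 10.31, 7.95 and 9.48 in sro (p = 0.1 by an exact two-sided permutation test, which cannot go lower with 3 arrays a group). Sro replicate 2 is thus closest to wild type. The excess of 3 prime over 5 prime signal in the rice RNA itself was smaller in every sro array. For actin it was 5.13, 5.24 and 5.17 in wild type and 4.46, 4.94 and 4.90 in sro, and for GAPDH 1.64, 1.66 and 1.65 and then 1.29, 1.63 and 1.37 (p = 0.1 for each by the same exact permutation test). Of 11 measured markers of young inflorescence and floral meristem, 10 lay above the level of the array's 10 probe sets for the fungus Magnaporthe (4.65 in wild type, 4.69 in sro), which stands here for signal without target. FZP lay below it. Beside the marker counts that follow, 7.28% of all genes were called higher and 19.4% lower. Of these 11 markers 2 rose, MADS58 by 0.49 and MADS34 by 0.27, and 1 fell. The latter was LAX1, a regulator of axillary meristems, with 10.07, 8.32 and 9.51 in wild type and 7.30, 7.43 and 7.24 in sro (log2 change -1.98, adjusted p = 0.0107), lowest within wild type in replicate 2. Of 6 markers of later anthers and pollen 4 rose (RTS, C6, OsRAFTIN1 and CP1). The mean level of the 6 was 5.62 to 6.23 in wild type and 7.84 to 7.91 in sro. RTS and C6 had wild type means below the fungal level (4.31 and 4.61). C4 was higher in every sro array but not called (wild type 5.79, 8.61 and 7.85). PSD1 was lower in every sro array and not called (log2 change -0.16). Of 10 early anther and germ cell markers 2 fell (6.68 to 6.85, and 6.49 to 6.61), with PAIR1, EAT1 and PTC1 below the fungal level in both groups. Of 4 leaf and chloroplast markers 2 fell (6.65 to 6.91, and 6.20 to 6.29), and RBCS1 lay below that level. Of 3 seed markers none was called by limma (0 also at an unadjusted p under 0.05), with ranges of 4.93 to 5.21 and 5.07 to 5.15, and GLUA1 and RAG1 lay below that level. The part of these shifts in the results below was not tested, and in whole inflorescences fewer cells of a type and less RNA per cell cannot be told apart.

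AGO18 had the largest change of the 19. This Argonaute, which belongs to a clade of grasses, is known in rice for binding the microRNA miR168 during virus infection and so relieving AGO1. Its level (LOC4343201, chromosome 7) was 8.66, 8.38 and 8.65 in wild type replicates 1, 2 and 3 and 7.85, 7.97 and 7.94 in sro. All 3 sro arrays lay below all 3 wild type arrays, with a gap of 0.40 between the groups. That is a fall of 0.64 (SE 0.09, 1.56-fold, adjusted p = 0.00295). A second, dimmer AGO18 probe set did not fall, with 5.68, 5.64 and 5.65 in wild type and 5.70, 5.92 and 5.80 in sro (log2 change 0.15, adjusted p = 0.214). With the mean of the 2 probe sets the change was -0.25 and was not called (adjusted p = 0.0614).

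PNH1 is the rice counterpart of Arabidopsis AGO10, which keeps the microRNAs miR165 and miR166 away from their targets, and is known in rice for its part in shoot apical meristem maintenance. PNH1 (LOC9269490, chromosome 6) stood at 10.38, 10.27 and 10.43 in the wild type arrays and at 9.95, 9.89 and 9.87 in the sro arrays. The groups were 0.32 apart, more than the whole range within either group. It fell by 0.46 (SE 0.07, 1.38-fold, adjusted p = 0.00322).

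AGO17, a rice Argonaute linked to pollen development, completed the group that fell. AGO17 (LOC4328436, chromosome 2) measured 9.14, 8.93 and 9.16 in wild type and 8.69, 8.65 and 8.63 in sro, a fall of 0.42 (SE 0.07, 1.33-fold, adjusted p = 0.00891). Wild type replicate 2 was the lowest wild type array for AGO18, PNH1 and AGO17, and still lay above every sro array. All 3 genes passed the test whichever single array was left out (highest adjusted p 0.0157, 0.0199 and 0.0422). With sro represented by replicate 2 alone, the array nearest to wild type in the dap spike, the changes of AGO18, PNH1 and AGO17 were -0.59, -0.47 and -0.42, and none passed (adjusted p = 0.122, 0.111 and 0.182, with only 668 probe sets called in all). Without limma's moderation of the variances AGO17 was also lost (adjusted p = 0.0539).

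**Figure D2:**
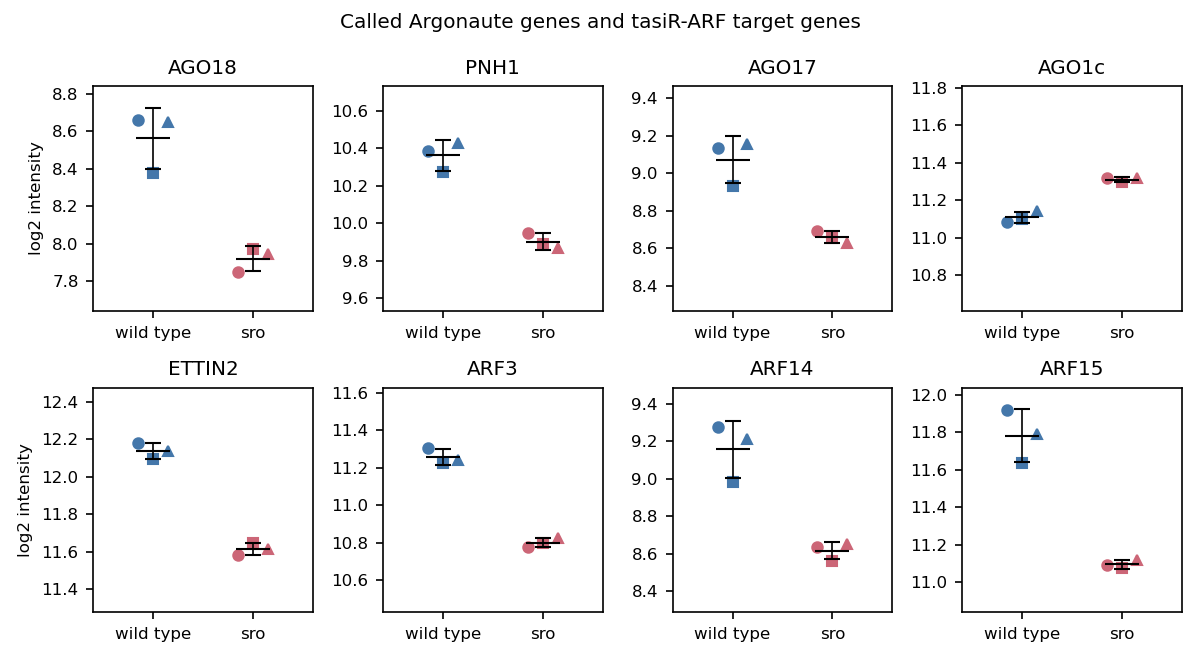
Log2 intensity of the 4 called Argonaute genes (top) and the 4 tasiR-ARF target genes (bottom) in each array (circle, square and triangle for replicates 1, 2 and 3; blue, wild type; red, sro; horizontal line and error bar, mean and SD of 3 arrays); every panel spans the same height on the log2 axis. In each panel the groups are separate, with sro lower in 7 and higher for AGO1c.

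The AGO1 proteins are the main carriers of microRNAs, and their own transcripts are targets of miR168. Of the 4 rice AGO1 genes only AGO1c (LOC4331253, chromosome 2) was called. Its levels were 11.09, 11.10 and 11.14 in wild type and 11.32, 11.30 and 11.32 in sro, so that every sro array was higher, by a small and even amount (log2 change 0.20, SE 0.05, 1.15-fold, adjusted p = 0.0455). The call rested on all 6 arrays: without any 1 of them the change was 0.19 to 0.22 and the adjusted p 0.0717 to 0.151. It was also lost when each array was centred on its median (0.18, adjusted p = 0.0897).

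AGO1a, AGO1b and AGO1d had changes of -0.09, -0.08 and -0.07 (adjusted p = 0.332, 0.353 and 0.502). AGO1a stood at 11.50, 11.53 and 11.58 in wild type and at 11.44, 11.44 and 11.46 in sro, and AGO1b at 13.60, 13.59 and 13.64 and at 13.52, 13.54 and 13.52. In both genes the sro arrays lay just below wild type, by gaps of 0.04 and 0.05, while those of AGO1d overlapped. A second AGO1b probe set had a change of the opposite sign (0.06, adjusted p = 0.555). With a trended limma fit AGO1b passed as lower at the same change (adjusted p = 0.0125). Whether AGO1c differed from its paralogs in its change was not tested.

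AGO4a, AGO4b, AGO2 and AGO3 were not called by limma (0 also at an unadjusted p under 0.05). AGO4a and AGO4b, which in rice bind the longer siRNAs that guide DNA methylation, had means of 13.51 ± 0.03 and 13.54 ± 0.03 (SD, n = 3 arrays in wild type and in sro) and of 12.83 ± 0.04 and 12.81 ± 0.01. Their log2 changes were 0.03 (95% interval -0.10 to 0.15) and -0.02 (-0.15 to 0.11). AGO2, known from antiviral defence, had a mean of 11.76 ± 0.04 in wild type and 11.77 ± 0.05 in sro (interval of the change -0.13 to 0.14).

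AGO3, the neighbour of AGO2 in the RefSeq gene order, had the widest spread between arrays. Its wild type values were 5.81, 6.29 and 5.54, and its sro values of 5.89, 5.79 and 5.71 lay inside that range, with an interval of the change from -0.47 to 0.31. AGO14 lay below the fungal probe sets in all 6 arrays (4.03 ± 0.05 and 4.08 ± 0.04), so no change could be read for it.

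MEL1, needed in rice for germ cells to develop before and through meiosis, stood at 11.61, 11.89 and 11.82 in wild type and at 11.81, 11.79 and 11.86 in sro. The groups overlapped, with a log2 change of 0.04 (95% interval -0.14 to 0.23, adjusted p = 0.77). The change was -0.04 without wild type replicate 1, the lowest array.

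Neither of the 2 measured Dicer genes was called by limma, and 1 of the 2 had an unadjusted p under 0.05. DCL2a, whose Arabidopsis counterpart cuts viral and other long double-stranded RNA, stood at 10.34, 10.37 and 10.46 in wild type and at 10.20, 10.21 and 10.19 in sro. The sro arrays all lay lower, but the difference missed the threshold (log2 change -0.19, 95% interval -0.33 to -0.06, adjusted p = 0.0684). Its probe set is of the type whose probes match transcripts of more than 1 gene, so a near-identical copy may share the signal. DCL4, which makes trans-acting and phased siRNAs, had 9.57, 9.60 and 9.42 in wild type and 9.38, 9.52 and 9.48 in sro. These values overlapped (log2 change -0.07, adjusted p = 0.57).

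Of the 3 measured polymerase genes none was called by limma (1 at an unadjusted p under 0.05). SHL2, the polymerase of the trans-acting siRNA pathway, stood at 8.70, 8.77 and 8.90 in wild type and at 8.56, 8.66 and 8.54 in sro, with a log2 change of -0.20 (95% interval -0.37 to -0.04, adjusted p = 0.105). The groups were separated by only 0.04. RDR2, which in Arabidopsis feeds the DNA methylation pathway, had 9.52 ± 0.04 and 9.44 ± 0.03 (adjusted p = 0.374). RDR4 had 12.50 ± 0.03 and 12.51 ± 0.04 (adjusted p = 0.933), from a probe set of the type whose probes may cross-hybridise.

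SGS3, which stabilises the template of RDR6 in Arabidopsis, stood at 11.96, 11.97 and 11.99 in wild type and at 11.79, 11.87 and 11.79 in sro. All sro arrays were lower, with a change of -0.16 (95% interval -0.29 to -0.03, adjusted p = 0.104). Of the measured trans-acting siRNA genes SHL2, SGS3 and DCL4, then, none passed the main test. In SHL2 and SGS3 the groups did not overlap, with sro below, as was so in 35.8% of all genes. When 1 probe set per gene was fitted and p adjusted over these genes alone, where 38.0% of genes were called, DCL2a (adjusted p = 0.0183), SHL2 (0.0481) and SGS3 (0.0257) passed as lower at the same changes. SGS3 also passed as lower with a trended limma fit (adjusted p = 0.00418) and without dim probe sets (0.0472). DCL2a passed in the same fits (0.0113 and 0.0317). Over the brightest probe sets of the 15 genes not called in the main test, the widest 95% interval reached 1.38-fold (AGO3). Without AGO3 and AGO14 it reached 1.29-fold (SHL2), so that larger differences lay outside the intervals of these probe sets. Intervals of dimmer probe sets could be wider. That of RDR4 ran from -0.09 to 1.12 (log2 change 0.52), and that of DCL2a from -0.42 to 0.21.

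**Figure D3:**
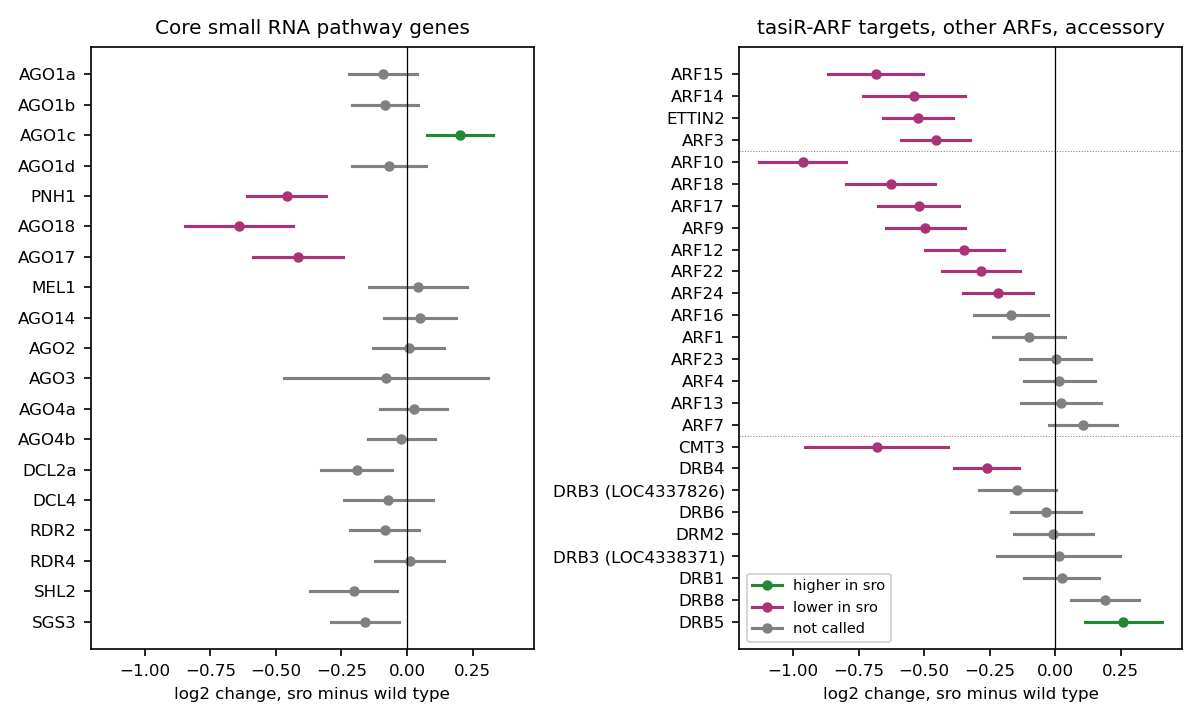
Log2 change, sro minus wild type, with its 95% interval from the limma fit, for the 19 core genes (left) and for tasiR-ARF targets, other auxin response factors and accessory genes (right, from top to bottom). Green marks genes called higher, purple called lower, grey not called. On the left only AGO18, PNH1, AGO17 and AGO1c are coloured, while all 4 tasiR-ARF targets and 7 other auxin response factors are purple.

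Auxin response factor genes of the ETTIN type, the targets of tasiR-ARF, all fell: 4 of 4 were called lower, beside 19.4% of all genes. ETTIN2 (LOC4325895, chromosome 1) stood at 12.18, 12.10 and 12.14 in wild type and at 11.58, 11.65 and 11.62 in sro, a fall of 0.52 (SE 0.06, adjusted p = 0.00113). Its second probe set also fell, by 0.63. ARF15 (LOC9268260, chromosome 5; also ETTIN1) had 11.92, 11.64 and 11.79 in wild type and 11.09, 11.07 and 11.12 in sro, the largest fall of the 4 at 0.69 (SE 0.08, adjusted p = 0.00139). ARF14 (LOC4339313, chromosome 5) fell by 0.54, from 9.16 ± 0.15 to 8.62 ± 0.05, and ARF3 (LOC4327014, chromosome 1) by 0.46, from 11.26 ± 0.04 to 10.80 ± 0.02.

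In none of the 4 genes did the groups overlap, with sro below in each, beside 35.8% of all genes. All 4 passed whichever single array was left out. With sro replicate 2 alone the changes were of similar size, from -0.71 to -0.46, and none passed (adjusted p between 0.0751 and 0.112). Falls were not limited to these targets. Of 13 other measured auxin response factor genes, a list added after the values were seen, 7 fell and 6 were not called (median log2 change -0.22). That is 53.8% called lower, beside 19.4% of all genes. ARF10, ARF18 and ARF22, which are known targets of the miR160 family in rice, fell by 0.96, 0.63 and 0.28. ARF17, ARF9, ARF12 and ARF24 fell by 0.52, 0.50, 0.35 and 0.22. Whether the 4 targets differed from the other auxin response factors was not tested.

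Accessory genes of the pathway moved both ways. Of 10 named in the table, 9 were measured, of which 2 fell, 1 rose and 6 were not called, or 33.3% called beside 26.6% of all genes (median log2 change -0.01). CMT3, the chromomethylase that maintains DNA methylation outside CG sites, stood at 8.36, 7.91 and 8.24 in wild type and at 7.40, 7.62 and 7.45 in sro. That was a fall of 0.68 (SE 0.12, adjusted p = 0.0075), and it was lost without limma's moderation of the variances (adjusted p = 0.0777). The sro arrays were lower throughout, although wild type replicate 2 came within 0.30 of sro replicate 2. DRM2, the methyltransferase that siRNAs guide to new sites, had 10.27 ± 0.09 and 10.26 ± 0.03 (adjusted p = 0.949).

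The DRB genes encode double-stranded RNA-binding proteins, some of which partner Dicers in Arabidopsis. Several of their names are shared by more than 1 gene in the RefSeq table. DRB4 (LOC4345448) fell by 0.26, from 10.98 ± 0.02 to 10.72 ± 0.02 (adjusted p = 0.0158), and DRB5 (LOC4347527, also OsDRB2) rose by 0.26, from 11.80 ± 0.08 to 12.06 ± 0.03 (adjusted p = 0.0317). Both calls were lost in some fits with 1 array left out, in which 4589 to 7907 probe sets were called, beside 8377 with all arrays. DRB4 was lost without sro replicate 1, 2 or 3 (adjusted p = 0.0519, 0.056 and 0.0647), and DRB5 was lost without any array other than wild type replicate 1 (0.062 to 0.0987), at changes of -0.27 to -0.25 and 0.21 to 0.28. DRB8 (LOC4351288, also OsDRB1) was higher in every sro array but missed the threshold (log2 change 0.19, adjusted p = 0.0602). Its probe set is of the type whose probes may cross-hybridise. In a dimmer DRB8 probe set the groups overlapped (log2 change 0.06, adjusted p = 0.692). DRB1 (LOC4324620), DRB6 (LOC4348920, also OsDRB5) and 1 gene named DRB3 (LOC4337826) were not called (changes of -0.15 to 0.02). In that DRB3 every sro array lay below wild type, by a gap of 0.05. The other DRB3 (LOC4338371) lay below the fungal level in all 6 arrays (3.99 ± 0.08 and 4.00 ± 0.20), so no change could be read for it.

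Besides their brightest probe set, 5 of the 19 genes had a dimmer one, and none of the 5 dimmer sets was called by limma (0 also at an unadjusted p under 0.05). In 4 of them (AGO1b, DCL2a, RDR4 and SGS3) the sro arrays stood in the order of the dap spike, with replicate 1 highest and replicate 2 lowest. The dimmer DCL2a set lay near the fungal level, with an sro mean of 4.67 beside 4.69, and 3 of its arrays fell below that level. For RDR4 the dimmer set read 6.05, 6.38 and 6.38 in wild type and 7.31, 6.13 and 6.92 in sro. For SGS3 it read 10.89, 10.92 and 10.93 in wild type and 11.14, 10.82 and 10.93 in sro, and its change of 0.05 had the opposite sign to that of the brighter set. None of the 19 brightest probe sets had that order. Over all genes with more than 1 probe set, it was found in 13.6% of 3444 brightest sets and 23.7% of 4531 dimmer sets. The part of labelling in these values was not tested.

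**Figure D4:**
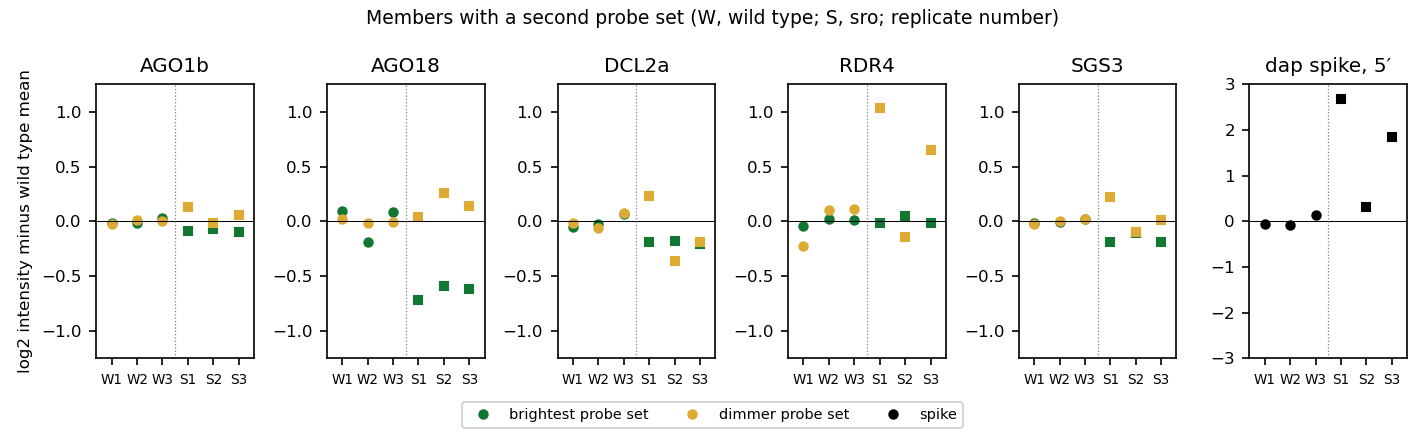
Log2 intensity minus the wild type mean in each array (W1 to W3, wild type replicates; S1 to S3, sro replicates) for the brightest (green) and dimmer (yellow) probe sets of 5 genes, and at the far right for the 5 prime end of the dap spike on a wider axis. The dimmer sets of AGO1b, DCL2a, RDR4 and SGS3 run S1 above S3 above S2 like the spike, and AGO18 is the 1 gene of the 5 whose brighter set was called lower.

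Spread between replicates was small for most of these genes. The median SD over 3 arrays was 0.05 in wild type and 0.04 in sro, and wild type varied more in 15 of the 19 genes, as it did in 67.7% of all genes. Wild type replicate 3 was the highest wild type array in 11 of the 19 and replicate 1 the lowest in 10. Among the sro arrays, replicate 2 was highest in 10 and replicate 3 lowest in 11. The median of the 19 genes, each taken from its wild type mean, was -0.09, -0.05 and -0.10 in sro replicates 1, 2 and 3, and that of all genes was -0.07, -0.04 and -0.06.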

How the data were processed

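Per the labels' protocols, total RNA of each sample (500 ng) was turned into biotinylated cRNA for Affymetrix rice arrays. The authors deposited 1 log2 intensity per probe set and array. Per the submitters' processing notes the tools were RMA and Partek, with no version or role stated. The log2 scale was inferred from the values. No source used here states RMA's settings, detection calls or dates of scanning. Precision is limited by having 6 arrays.

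The deposited values were used without further normalization, after 123 Affymetrix control probe sets were left out. Probe sets were joined to genes by gene number through the GEO platform annotation and the RefSeq table of assembly ASM3414082v1, which gave names and chromosomes only. Of those tested, 34727 probe sets have no gene listed, and 95 probe sets naming several genes were not used. Each gene took its brightest probe set over the 6 arrays. Sro and wild type were compared with limma 3.58.1 (R 4.3.3; lmFit and eBayes without trend, no covariates, two-sided), with Benjamini-Hochberg adjustment over 57258 probe sets. Python 3.11.15, pandas 2.3.3, scipy 1.17.1 and matplotlib 3.10.9 were used for summaries, exact permutation tests and figures. The fit was tested on simulated data.

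The members and lists were chosen with earlier results of these data known. Every member is named. Accessory genes, tasiR-ARF targets and markers were matched by fixed symbols, and 4 genes that share only a name with a list (such as the aquaporin TIP2) were left out of it. The other auxin response factor list was added later. The replicates are called biological, with no word on separate plants, so p-values measure only the spread between these samples. Alternatives were a replicate block, each array left out, sro replicate 2 alone, unmoderated and trended fits, median centring, quantile normalization, a filter and a floor at the fungal level, and other choices of probe set. Replicate numbers are shared by the groups, but same-numbered arrays did not deviate together (correlations of -0.019, -0.028 and -0.004), so the samples were not treated as paired.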

Additional observations from a re-analysis of the deposited data

Results flagged for a closer look

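The 5 prime end of the dap labelling spike, a probe set outside the comparison of genes, averaged 9.25 ± 1.20 (SD, n = 3 arrays) in sro against 7.63 ± 0.12 in wild type, above every wild type array in all 3 sro arrays.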

How the results depend on the processing

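The falls of AGO18, PNH1, AGO17 and the 4 tasiR-ARF targets kept their direction in all 17 alternatives, and AGO1c kept its rise. In several of these, such as the replicate block and the unmoderated and trended fits, only the error or adjusted p differs, so a change cannot move. Choices of probe set cannot move it either for a gene with 1 probe set. No alternative took the second AGO18 probe set alone (log2 change 0.15). Without single arrays, 4589 (without sro replicate 3) to 7907 probe sets were called, beside 8377 with all, and 0 of the 19 genes were called higher (1 at an unadjusted p under 0.05 each time), with medians of -0.091 to -0.038 for the 19 genes and of -0.091 to -0.020 for the Argonautes. The count was 5253 without wild type replicate 3 and 5030 without sro replicate 1. With the replicate block, 6315 probe sets and 0 of the 19 genes higher were called (1 unadjusted; AGO1c 0.20, adjusted p = 0.11), DRB4 (adjusted p = 0.0548) and DRB5 (0.0678) were lost, and the 3 falls stayed called. Among the 19 genes, the accessory genes and the tasiR-ARF targets the block changed no other call, and 3 of 19 were lower with and without it. With sro replicate 2 alone, 668 probe sets, 0 genes higher and 0 lower were called (0 and 3 unadjusted), with medians of -0.047 (19 genes), -0.030 (Argonautes), -0.095 (Dicers) and -0.047 (polymerases). That fit assumes that the lone array varies like the others. The unmoderated model called 4965 probe sets. Median centring called 0 of the 19 higher (1 unadjusted). Genes called lower numbered 6 with a trended fit (AGO1b, DCL2a and SGS3 added), 5 without dim probe sets (DCL2a and SGS3 added) and 6 with 1 probe set per gene. The same fits called 10902, 9815 and 6809 probe sets. The Argonaute median was -0.021 with the mean of a gene's probe sets, and quantile normalization gave -0.094 for the Dicers and -0.034 for the polymerases. Signs turned only in genes never called: without single arrays the changes ranged from -0.039 to 0.10 (MEL1), -0.011 to 0.032 (AGO2), -0.25 to 0.13 (AGO3), -0.012 to 0.021 (RDR4), -0.015 to 0.061 (DRB1), -0.058 to 0.024 (DRM2) and -0.088 to 0.11 (DRB3, LOC4338371). Median centring gave -0.016 (AGO2), -0.013 (RDR4) and -0.0093 (that DRB3), quantile normalization 0.012 (DRM2), -0.034 (that DRB3) and 0.016 (DRB6), and sro replicate 2 alone 0.024 (DRM2) and 0.0006 (DRB6). The causes were not tested. AGO14 and that DRB3 lay below the fungal level and had no value without dim probe sets.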
